A study of Mus musculus with 477 samples.

Results

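The cells described here are the luminal cells of virgin mammary glands that lay outside the hormone-sensing group. A virgin cell was a member when it held under 500 CPM of *Prlr*, the prolactin receptor (chromosome 15, 10177238 to 10349180, mm10), and under 100 CPM of *Esr1*, the estrogen receptor alpha (chromosome 10, 4611593 to 5005614). CPM scales the count of a gene by all counted reads of the cell, not by gene length, so levels are compared between cells and not between genes. The rule found 64 members and left 50 virgin cells, called the other cells, in a series of 477 cells. Members were thus chosen by their measured *Prlr* and *Esr1* levels.

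Single luminal cells (CD24 high, CD29 low and positive for membrane GFP) were sorted from the fourth mammary glands of female mice of 3 to 4 months in a mixed C57BL/6 and 129/Sv background, and captured on Fluidigm C1 chips, which hold each cell in its own chamber and make full-length cDNA from it. All mice carried MMTV-Cre, a recombinase driven by a mammary tumor virus promoter, and the ROSA mT/mG reporter, whose green form marks cells in which Cre has acted. The virgin mice were vBrL (*Brca1* fl/fl), vBr53L (*Brca1* fl/fl, *Trp53* fl/+) and v53L (*Trp53* fl/+), and the pregnant mice, at day 12.5, were pBrL-1 and pBrL-2, pBr53L and p53L with the same 3 genotypes. The *Trp53* fl/+ genotype is that of the paper's methods. A supplementary figure legend of the paper gives *Trp53* fl/fl for such mice, so the number of floxed *Trp53* alleles is not settled. Each virgin group was 1 mouse and 1 chip (vBrL on SC10, vBr53L on SC7, v53L on SC9), so genotype, animal and chip cannot be told apart among them. No group was free of floxed alleles.

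The luminal layer of the mammary duct holds hormone-sensing cells, which carry the estrogen, progesterone and prolactin receptors and send growth signals to their neighbours. It also holds receptor-poor cells, known for the stem cell factor receptor Kit and the transcription factor Elf5, which act as progenitors of the milk-secreting alveoli. Caseins and other milk proteins are made by the alveolar lineage, and their genes are known targets of Stat5, the transcription factor that prolactin signalling activates.

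Members made up 62.9% of the vBrL cells (22 of 35, exact 95% binomial interval 44.9 to 78.5) and 76.9% of the vBr53L cells (30 of 39, 60.7 to 88.9). In v53L they made up 30.0% (12 of 40, 16.6 to 46.5). The v53L interval lay below that of vBr53L and overlapped that of vBrL. With limits of 50 and 10 CPM the vBr53L and v53L intervals overlapped too (25.6 to 57.9 and 9.05 to 35.6). These intervals cover counting error within 1 animal only, and the difference between mice was not tested because each group is 1 mouse. Under the limits of 500 and 100 CPM the pregnant mice had 75% to 84.9% of their cells in the class.

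The receptor levels below chose the members and are given as a description. The median *Prlr* level among members was 7.62 CPM (vBrL), 44.8 CPM (vBr53L) and 11.5 CPM (v53L), against 2122, 1504 and 5188 CPM in the other cells of the same mice. Of the 64 members, 43 held under 50 CPM of *Prlr*, 16 held 50 to 250 and 5 held more. The members just inside the *Prlr* limit had 447, 461 and 491 CPM, and the first cells beyond it had 627, 646 and 760 CPM. For *Esr1* the highest member had 51.6 CPM and the lowest cell past the limit 104.8 CPM. Of the other cells, 27 passed both limits, 19 passed that of *Prlr* alone and 4 that of *Esr1* alone.

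**Figure D1:**
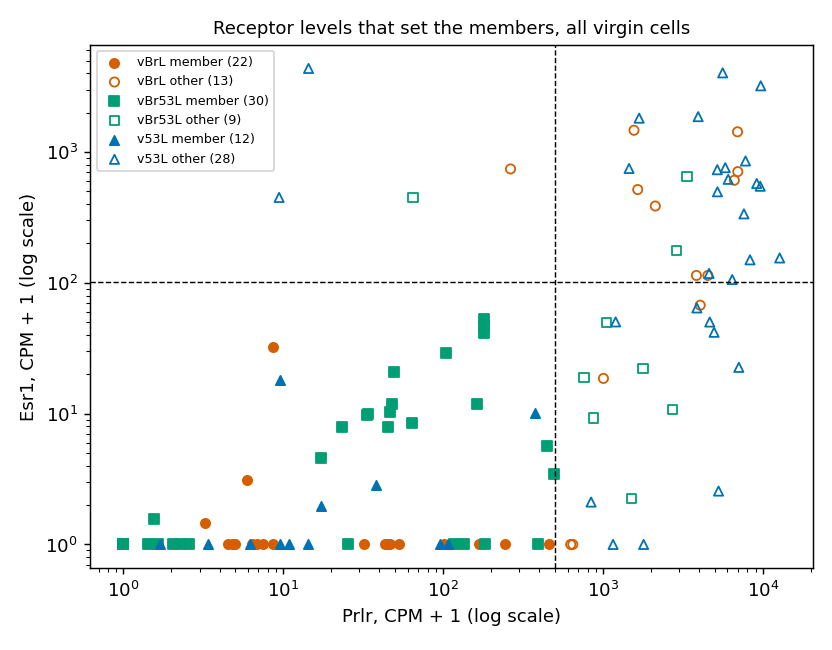
*Prlr* (x axis) against *Esr1* (y axis) in each virgin cell, both as CPM + 1 on log scales, with the limits of 500 and 100 CPM as dashed lines. Filled symbols are the 64 members, open symbols the other cells. No member exceeds 491 CPM of *Prlr* or 51.6 CPM of *Esr1*, and 13 of the 30 vBr53L members (green squares) have 5 CPM or more of *Esr1*.

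Members held 442325 to 3550564 reads a cell, with medians of 1939695 in vBrL, 1748668 in vBr53L and 1060023 in v53L. The other cells had medians of 1834251, 1771789 and 1043891 reads. Members had fewer detected genes, with medians of 4304 against 4848 in vBrL, 4784 against 6012 in vBr53L and 2958 against 3894 in v53L. Summed over members, the depth was 46 M, 50.2 M and 12.8 M reads, so v53L values rest on the smallest sum.

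The targeted genes were read in few members. *Brca1* (chromosome 11, 101488764 to 101551955) was at 0.457 CPM over the summed reads of vBrL members, at 40.0 CPM in vBr53L members and unread in v53L members. In vBr53L a single cell held 91.7% of the *Brca1* reads, so the level is that of 1 cell. The *Trp53* level was 64.7, 135 and 126 CPM. Counts per gene take in exons outside the floxed ones, so neither value measures an intact transcript.

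All 64 members expressed *Krt18* and *Epcam* at 10 CPM or more, the keratin and the adhesion molecule of luminal epithelium, and 62 expressed *Krt8*. The level of 10 CPM was set after the values had been seen. Markers of other cell types were low in members. The 9 immune cell markers summed to at most 0.219 CPM. The fibroblast markers summed to 38.9, 42.8 and 0 CPM in vBrL, vBr53L and v53L, with no read of *Col3a1* or *Lum*. The red cell markers summed to at most 5.94 CPM, the endothelial markers to 0.0199 to 13.3 CPM and the adipocyte markers to at most 2.73 CPM. The basal markers summed to 128, 68.1 and 0.234 CPM against 78.1, 98.9 and 2.4 CPM in the other cells. The basal keratin gene *Krt14* was at 10 CPM or more in 10 members of vBrL and vBr53L, all with *Krt18*, while 0 of these 10 reached that level for *Krt5* or *Acta2*. Of the other cells, 1 in each mouse carried immune markers. The summed levels in the other cells were 2.76 to 72.5 CPM (immune), 262 to 2216 CPM (fibroblast, almost all *Dcn*), 23.8 to 146 CPM (red cell), 0 to 0.0856 CPM (endothelial) and 0 to 0.0364 CPM (adipocyte). The part of such cells in the differences below was not tested, beyond leaving out the cells with immune markers.

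The 4 markers proposed for these cells were *Kit* (chromosome 5, 75574916 to 75656722), *Elf5* (chromosome 2, 103411688 to 103450989), *Aldh1a3* (chromosome 7, 66390890 to 66427517), a retinaldehyde dehydrogenase, and *Csn3* (chromosome 5, 87925579 to 87932665), which encodes kappa-casein. They bear on the label of progenitor-like cells unevenly. *Csn3* reached 10 CPM in 64 of 64 members, *Kit* in 39, *Elf5* in 32 and *Aldh1a3* in 11. *Kit* and *Elf5* were found together in 18 members, and 8 members had none of *Kit*, *Elf5* and *Aldh1a3* at that level. Among the 50 other cells *Csn3* reached it in 39, *Kit* in 19, *Elf5* in 11 and *Aldh1a3* in 3. These counts pool mice of unlike mix, since 28 of the 50 other cells came from v53L. In vBr53L, 2 or more of *Kit*, *Elf5* and *Aldh1a3* were found in 12 of 30 members but 6 of 9 other cells. The counts were 10 of 22 and 3 of 13 in vBrL, and 2 of 12 and 3 of 28 in v53L.

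Over summed reads, *Kit* had 215 CPM in vBrL members against 143 in the other cells, 135 against 71.7 in vBr53L, and 229 against 28.6 in v53L. It was thus higher in members of all 3 mice, by 1.51, 1.89 and 8.0 times, although in v53L a single cell held 66.2% of the reads. The fitted difference was 1.63 ± 0.75 (log2, SE, 3 mice), which did not pass (edgeR adjusted p = 0.859). *Elf5* had 36.7 against 36.9 CPM in vBrL, 141 against 252 in vBr53L and 10.1 against 3.93 in v53L, with no common direction. *Aldh1a3* had 13.4 against 1.93 CPM in vBrL and 82.8 against 3.88 in vBr53L, but no read in v53L members. *Csn3* had 8482 against 3948, 11915 against 8975 and 43351 against 5926 CPM, higher in members of all 3 mice (log2 1.61 ± 0.56, edgeR adjusted p = 0.681). Since *Kit*, *Elf5* and *Aldh1a3* were found in part of the members and *Csn3* in most other cells too, the class is called by its rule here.

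To ask which genes differ between members and the other cells of the same gland, counts were summed per mouse and class and fitted over 6 sums with the mouse as a block. *Prlr* and *Esr1* were left out of the calls. The remaining genes come from the same libraries that set the classes, so genes known to be expressed with these receptors are not independent of the rule. Of 10451 genes tested, 17 (0.163%) passed, 0 of them higher and 17 lower in members (edgeR quasi-likelihood test, adjusted p under 0.05). At an unadjusted p under 0.05, 275 were higher and 348 lower, and DESeq2 called 777 genes, 286 higher and 491 lower.

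All 17 genes had a lower level in members of every mouse. *Cited1* (chromosome X, 102247381 to 102252181), a transcriptional co-regulator and marker of estrogen-responsive cells, had 0.457 CPM in vBrL members, 1.25 in vBr53L and 0.234 in v53L. The other cells had 439, 569 and 585 CPM, that is 960, 454 and 2501 times as much. The fitted difference was -9.71 ± 0.73 (log2, SE; edgeR adjusted p = 0.00229). *Cited1* reached 10 CPM in 2 of 64 members and in 36 of 50 other cells.

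*Tph1*, the rate-limiting enzyme of serotonin synthesis, had 0.936, 1.43 and 0.234 CPM in members against 442, 1059 and 578 CPM (log2 -9.59 ± 0.70, edgeR adjusted p = 0.00229). *Gpx3*, a secreted glutathione peroxidase, had 4.24, 2.07 and 0.701 CPM against 2340, 572 and 2046 CPM (log2 -9.29 ± 0.75, edgeR adjusted p = 0.00306). *Ptn*, the growth factor pleiotrophin, had 2.68, 25.5 and 8.11 CPM against 2709, 2338 and 8570 CPM (log2 -8.74 ± 0.86, edgeR adjusted p = 0.00599). For all 4 genes the highest member sum lay far below the lowest sum of the other cells.

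*Bmp3*, a secreted bone morphogenetic protein, had at most 0.718 CPM in members and 226 to 1237 CPM in the other cells. *Tspan1*, a tetraspanin, had at most 0.623 CPM against 139 to 519, and *Agtr1a*, the angiotensin receptor, at most 0.348 CPM against 78.4 to 472. *Gfpt2*, an enzyme of hexosamine synthesis, had at most 0.390 CPM against 185 to 264. *Cxcl15*, a chemokine, had at most 1.74 CPM against 280 to 501. These 5 genes did not overlap between the classes, though without vBr53L *Gfpt2* was not called (edgeR adjusted p = 0.138). *Col8a1*, a collagen chain, and *Calca*, the gene of calcitonin and CGRP, were also among the 12 genes with the largest differences. Their other-cell levels varied more between mice, from 29.3 to 469 CPM and from 7.45 to 5672 CPM. In members *Col8a1* was read in 4 cells. *Col8a1* was not called without vBr53L (edgeR adjusted p = 0.0648) or without v53L (edgeR adjusted p = 0.193), and with no mouse block neither *Col8a1* (0.321) nor *Calca* (0.535) was. *Wfdc12*, a further called gene that is named after its values were seen, had 4235 CPM in the vBrL other cells but 0.0727 CPM in those of v53L, where members had no read. Its call was lost without the cells with immune markers (log2 -5.75, edgeR adjusted p = 0.552) and without vBrL (log2 -7.02, edgeR adjusted p = 0.167). Where a class holds few reads, the fitted log2 value depends on the prior count of the fit and the levels are the firmer statement.

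Of a list of 14 genes that go with hormone sensing, 12 were tested and 10 had a lower level in members of every mouse, where 17.9% of all genes tested did. The median difference was -7.27 (log2), against -0.07 over all genes tested, and *Cited1* and *Areg* passed. *Areg* encodes amphiregulin, the EGF receptor ligand released by estrogen-responsive cells. It had 1.96, 5.26 and 0.779 CPM in members against 262, 390 and 429 CPM (log2 -7.22 ± 0.79, edgeR adjusted p = 0.0112). *Foxa1*, the pioneer factor of the estrogen receptor, had at most 0.218 CPM in members and 43.8 to 204 CPM in the other cells, and just missed the threshold (edgeR adjusted p = 0.0502). *Pgr*, the progesterone receptor, had at most 0.392 CPM against 20.9 to 195 CPM (edgeR adjusted p = 0.146). Since the classes were cut on 2 genes of this programme, these directions are not independent evidence.

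Although such genes had few reads in members, many members had at least 1 read of them. *Areg* was read in 41 of 64 members and *Cited1* in 25, while at 10 CPM they were found in 5 and 2. In vBr53L, 13 of 30 members had 5 CPM or more of *Esr1*, and all 13 had at least 10 CPM of *Dcn*, the proteoglycan decorin, which the other cells of that mouse held at 2099 CPM. Of the 17 members with less *Esr1*, 3 did. The *Dcn* to *Esr1* ratio in the 13 cells was 1.05 to 4.14, against 11.9 in the summed other cells of that mouse. A set of 3 of these cells had nearly the same receptor levels, with 178, 178 and 179 CPM of *Prlr*, 40.6, 45.6 and 51.6 CPM of *Esr1*, and 69.4 to 72.6 CPM of *Dcn*. Their levels of *Krt18* ranged from 1368 to 15659 CPM. Their profiles correlated at 0.585 to 0.604, above the median of 0.530 but within the range of 0.379 to 0.643 over the 435 pairs of vBr53L members. They were kept as separate cells. In vBr53L members 1 cell held 64.9% of all *Dcn* reads. How trace reads of these genes came into members was not tested.

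**Figure D2:**
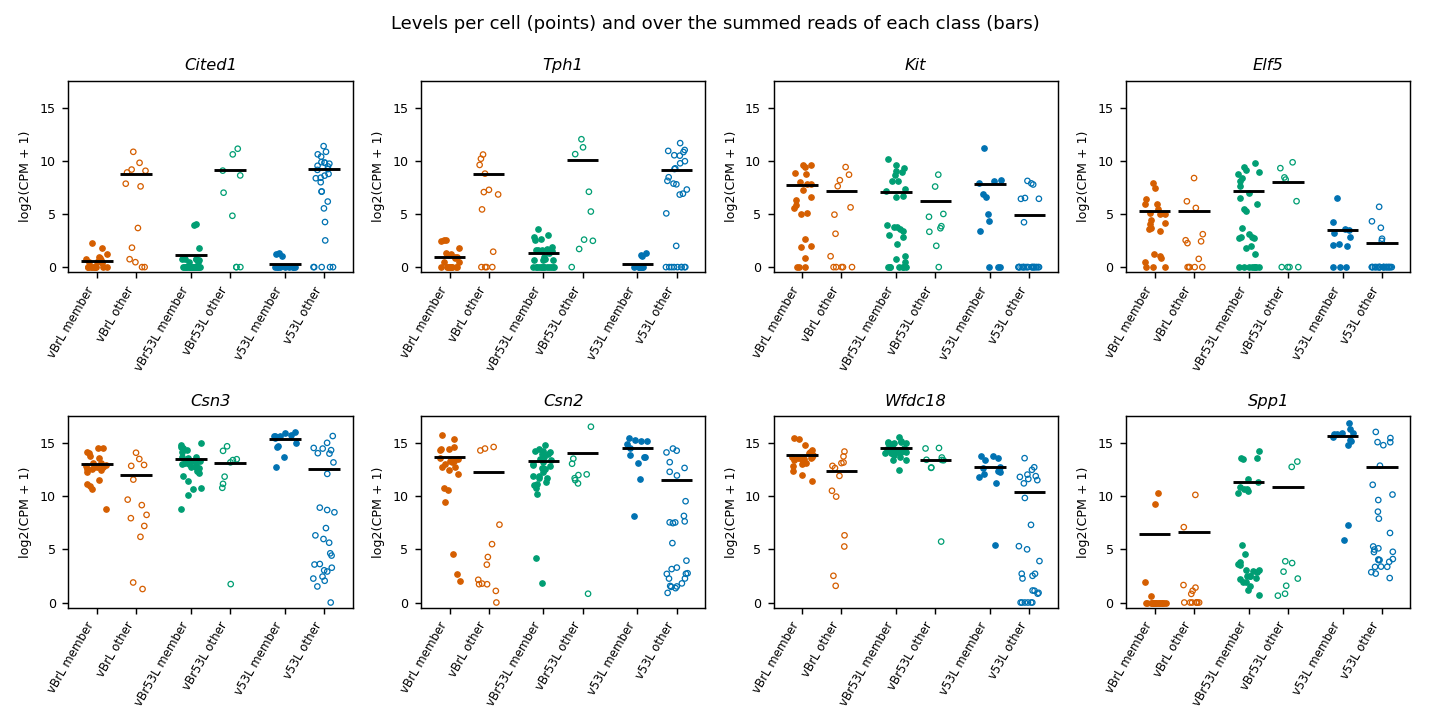
Level of 8 genes in each virgin cell, as log2(CPM + 1), for members (filled) and other cells (open) of vBrL, vBr53L and v53L; black bars give the level over the summed reads of a class. *Cited1* is at 10 CPM or more in 2 members and *Tph1* in 1, *Csn3* is present in all 64 of them, and *Spp1* is above 10 CPM in all 12 v53L members.

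In the fit of all 3 mice edgeR called no gene higher in members and DESeq2 called 286, *Muc15* (adjusted p = 0.00719), *Btn1a1* (0.0116) and *Wfdc18* (0.0222) among them. With edgeR, 10 were called higher when only other cells past both limits entered, 6 without the low-count filter and 5 without vBrL. The genes named next were taken from the lists. Milk protein genes were often higher in members: of 14 tested, 7 had a higher level in members of every mouse, where 10.8% of all genes tested did, and the median difference was 1.46 (log2). *Wfdc18*, a whey acidic protein family gene, had 14740, 24008 and 6779 CPM in members against 5426, 10763 and 1354 CPM, that is 2.72, 2.23 and 5.01 times as much (log2 1.82 ± 0.40, edgeR adjusted p = 0.288). *Muc15*, a mucin of the milk fat globule membrane, had 3209, 656 and 421 CPM against 1309, 116 and 148 CPM (log2 1.95 ± 0.39, edgeR adjusted p = 0.208). *Btn1a1*, the milk fat globule protein butyrophilin, had 89.1, 165 and 1083 CPM against 66.8, 18.3 and 148. *Mfge8*, *Trf* and *Xdh* were likewise higher in members of all 3 mice, by 1.13 to 15.1 times.

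The 5 caseins together took 4.48% of the reads of vBrL members, 3.28% in vBr53L and 10.0% in v53L, against 2.00%, 4.06% and 1.32% in the other cells. Over summed reads members thus held more casein than the other cells in 2 mice and less in vBr53L. There the sign of the sum rests on 1 of 9 other cells. That cell had 20.0% casein, and without it the share of the vBr53L other cells was 1.55%, below that of members. Without their highest cells the other cells of vBrL and v53L had 1.03% and 1.12%. Every member had casein reads, with a lowest share of 0.378% in vBrL, 0.670% in vBr53L and 0.976% in v53L, whereas the lowest other cells had 9.01e-04%, 4.25e-04% and 6.18e-04%. The share reached 1% in 53 of 64 members and 18 of 50 other cells. By mouse it did so in 18 of 22 members and 4 of 13 other cells of vBrL. The counts were 24 of 30 and 6 of 9 in vBr53L, and 11 of 12 and 8 of 28 in v53L. The median share was 2.90% in members against 0.461% in vBrL, 2.07% against 2.42% in vBr53L and 10.1% against 0.0301% in v53L. In vBr53L the median member thus lay below the median other cell.

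*Csn2*, the beta-casein gene, had 13524, 9858 and 23151 CPM in members against 4979, 16572 and 2945 CPM, and *Csn1s1*, the alpha-S1-casein gene, 12461, 6420 and 16101 CPM against 4867, 7786 and 2495. Both were higher in members of vBrL and v53L and lower in those of vBr53L. The same cell held 77.6% of the *Csn2* reads of the vBr53L other cells, and without it they had 4303 CPM of *Csn2* and 3093 CPM of *Csn1s1*, below the members. The 150 bases upstream of their starts are shown because both genes were read in every member and both windows hold a match to the Stat-type motif TTCNNNGAA, which reads the same on both strands. They are from RefSeq (GRCm38.p6, the assembly also named mm10), each printed 5′ to 3′ on the strand of its gene, with the motif in capitals: chr5:87666058-87666207 on the plus strand for *Csn1s1*, where the motif begins 100 bases before the start, and chr5:87699426-87699575 on the minus strand for *Csn2*, 93 bases before it.
Csn1s1: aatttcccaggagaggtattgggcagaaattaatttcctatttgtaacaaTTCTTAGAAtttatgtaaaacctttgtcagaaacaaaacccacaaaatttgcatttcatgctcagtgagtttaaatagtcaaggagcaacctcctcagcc
Csn2: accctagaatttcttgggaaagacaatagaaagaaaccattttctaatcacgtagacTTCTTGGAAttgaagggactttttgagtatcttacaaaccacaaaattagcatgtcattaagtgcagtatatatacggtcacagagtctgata
The motif was found in 8.30% of 32851 RefSeq promoter windows of 300 bases. Of the 5 casein genes 3 had a window. In the third, *Csn1s2a*, the motif began 20 bases after the RefSeq start (87774450). That start lies 117 bases upstream of the GENCODE start (87774567), so the motif lies after the one and before the other. A match is a description of the letters and was not tested for binding.

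Secreted defense genes were the second group in which many genes had higher levels in members. Of 12 tested, 6 were higher in members of every mouse (10.8% of all genes) and 1 was lower (17.9%). The median difference was 1.74 (log2). Over 17 genes the list summed to 3023, 11648 and 19643 CPM in members against 3029, 6837 and 4387 CPM. The sum was thus not higher in vBrL members. *Lcn2*, the iron-scavenging lipocalin, had 2217, 8685 and 14890 CPM in members against 947, 5368 and 2869 CPM and was at 10 CPM or more in 64 of 64 members and 30 of 50 other cells (edgeR adjusted p = 0.542). *Saa2*, an acute phase serum amyloid, had 5.85, 338 and 1273 CPM against 0, 49.4 and 78.7 CPM (edgeR adjusted p = 0.248), from 14 members. A single cell held 77.3% of its reads in vBrL members and 62.4% in v53L members. *Saa1*, its neighbour in function and near copy in sequence, had 10.7, 395 and 1834 CPM against 0, 138 and 68.6, and reads could be split between them. Complement *C3* had 680, 909 and 271 CPM against 231, 624 and 32.7. *Wfdc2* went the other way, with 0.348, 75.8 and 3.43 CPM in members against 182, 210 and 907 CPM. *Slpi* had 14.1, 143 and 206 CPM in members against 1170, 171 and 61.1 CPM. *Cxcl1* had 5.61, 380 and 84.6 CPM against 273, 120 and 110 CPM, and neither had a common direction.

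None of 8 further genes known from luminal progenitors passed under edgeR, while *Cd14* (adjusted p = 0.0282) and *Hey1* (0.0371) passed under DESeq2. *Cd14*, the lipopolysaccharide co-receptor, had 428, 1067 and 2553 CPM in members against 136, 578 and 342 CPM, and was found in 55 of 64 members and 24 of 50 other cells (log2 1.98 ± 0.54, edgeR adjusted p = 0.470). Of these 8 genes, 3 were higher in members of every mouse (10.8% of all genes), 0 were lower in every mouse, and the median difference was 1.94. *Ehf*, an epithelial ETS factor, had 955 and 410 CPM against 302 and 139 in vBrL and vBr53L but 107.6 against 137 in v53L. Of 12 alveolar regulators tested, 3 were higher in members of every mouse (10.8% of all genes), the factors *Cebpb*, *Nfib* and *Tfap2c*. In turn 1 was lower (17.9%), *Socs2*, a feedback inhibitor of Stat5 signalling, with 13.6, 154 and 3.97 CPM against 500, 223 and 43.1. The median difference was 0.38 (log2). None of the 12 passed under edgeR, while *Tfap2c* (adjusted p = 0.0208) and *Socs2* (0.0120) passed under DESeq2. *Stat5a* had 143, 84 and 15.9 CPM in members against 113, 88.7 and 197, in no common direction.

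Of 14 receptors for local signals tested, 2 were higher in members of every mouse (*Igf1r* and *Lgr4*) and 4 lower, where 10.8% and 17.9% of all genes tested were. None passed under edgeR, while *Fgfr2* (adjusted p = 8.09e-05), *Lifr* (1.53e-04), *Il13ra1* (3.71e-04) and *Lgr4* (0.0420) passed under DESeq2. *Fgfr2*, a fibroblast growth factor receptor, had 29, 17.8 and 93.9 CPM in members against 274, 121 and 864 CPM, 9.43, 6.82 and 9.20 times lower (log2 -2.89 ± 0.49, edgeR adjusted p = 0.105). *Il13ra1*, a chain of the interleukin-13 receptor, had 106.1, 48.7 and 39.2 CPM against 392, 409 and 583 (log2 -2.77 ± 0.54, edgeR adjusted p = 0.197), and *Lifr*, the receptor of leukemia inhibitory factor, 3.70, 85.8 and 19.6 CPM against 241, 181 and 576. *Lgr4*, an R-spondin receptor, was higher, with 583, 457 and 281 CPM against 324, 106.1 and 72.9 (log2 1.82 ± 0.49, edgeR adjusted p = 0.470). Outside that list, the Notch receptor gene *Notch2* had a higher level in members, with 262, 151 and 339 CPM against 76.6, 88.3 and 161.

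The pan-luminal genes differed little as a group, with a median of 0.21 (log2) over 12 genes. *Krt8* had 1164, 2689 and 1649 CPM in members against 1250, 1935 and 2085, and *Krt7* 14.9, 241 and 41.1 CPM against 145, 420 and 542. *Btg2*, an antiproliferative immediate early gene, had 881, 717 and 1020 CPM against 469, 110 and 410 (edgeR adjusted p = 0.405), while *Fos* had 1445, 764 and 713 CPM against 1569, 1350 and 2330. The interferon list (0 of 14 tested higher and 1 lower in members of every mouse), the glycolysis list (2 and 2 of 9) and the p53 target list (2 and 4 of 13) had no common direction, with medians of 0.38, 0.41 and -0.32. Of 16 immediate early genes 2 were higher and 4 lower in members of every mouse, of 7 Notch genes 2 and 2, of 17 proliferation genes 0 and 1, and of 13 milk lipid genes 3 and 2. Over all genes tested 10.8% were higher and 17.9% lower in members of every mouse.

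**Figure D3:**
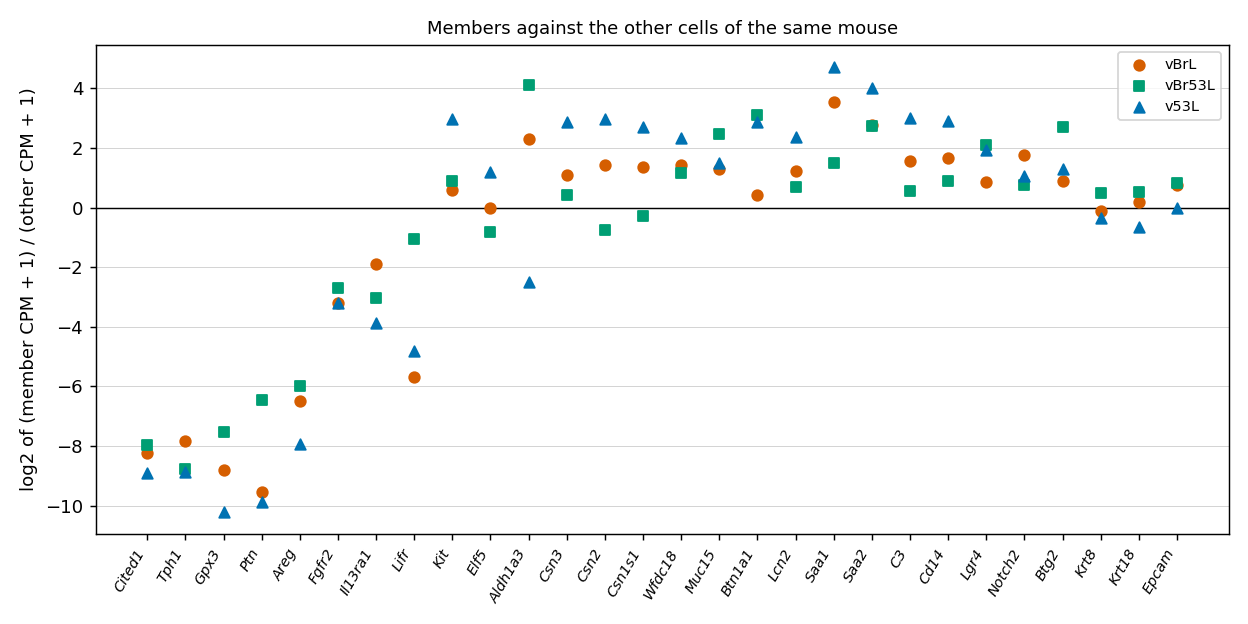
Level of members over that of the other cells of the same mouse, as log2 of the ratio of (CPM + 1), for 28 genes of the text in 3 mice; the genes were chosen after their values had been seen. *Cited1*, *Tph1*, *Gpx3*, *Ptn* and *Areg* lie near or below -6 in every mouse, *Fgfr2* between -2 and -4, *Wfdc18*, *Muc15*, *Cd14* and *Lgr4* above 0 in every mouse, and *Csn2* below 0 in vBr53L only, where 1 other cell sets the sign.

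The members of the 3 mice also differed from each other. These values are a description, since each is 1 mouse and 1 chip. With a rule of at least 100 CPM, 8 times the next mouse and a read in 50% of members after thinning to 100000 reads, 7 genes marked vBrL, 9 vBr53L and 14 v53L. In v53L the leading genes were *Cdhr1*, *Lao1*, *Lalba*, *Ciz1* and *Spp1*. *Spp1*, the secreted phosphoprotein osteopontin, had 52045 CPM in v53L members, 2573 in vBr53L and 87.3 in vBrL. It was read at 10 CPM or more in 12 of 12, 16 of 30 and 2 of 22 members. *Lalba*, the lactalbumin gene of lactose synthesis, had 1829, 9.94 and 25.3 CPM in the same order and was found in 10 of 12 v53L members. The other cells of v53L also held *Spp1* (7035 CPM) and *Lalba* (170 CPM).

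In vBr53L the leading genes included *Tagap1*, *Slc7a11*, *Socs2* and *Tnfrsf10b*. *Tagap1*, which encodes a GTPase-activating protein, had 289 CPM in vBr53L members against 1.02 in vBrL and 0.0779 in v53L, and 433 CPM in the other cells of vBr53L. *Slc7a11*, the cystine transporter, had 151 CPM against 0.457 and 12.3, and *Tnfrsf10b*, a TRAIL death receptor, 250 CPM against 23.4 and 11.7. The vBr53L other cells had 223 CPM of *Socs2* and 154 CPM of *Tnfrsf10b*, against 154 and 250 CPM in members, but 11.8 CPM of *Slc7a11*. In vBrL the leading genes were *Nr4a1*, *Fam20a*, *Mbtd1*, *Xpo1* and *Dtx3l*. *Nr4a1*, an immediate early nuclear receptor, had 244 CPM in vBrL members against 7.53 and 3.59, and was found in 16 of 22 members. The vBrL other cells had 228 CPM of *Nr4a1*, close to the members of that mouse.

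Cycling cells were found among members of 2 mice. Of 20 proliferation genes, 5 or more reached 10 CPM in 7 of 22 vBrL members (31.8%, exact 95% binomial interval 13.9 to 54.9), 7 of 30 vBr53L members (23.3%, 9.93 to 42.3) and 0 of 12 v53L members, which leaves a share of up to 26.5%. *Mki67* and *Top2a*, both genes of dividing cells, were at 10 CPM or more together in 5, 5 and 0 members. *Mki67* had 139 CPM in vBrL members, 146.5 in vBr53L and no read in v53L, and *Top2a* 273, 79.5 and 0 CPM. No v53L cell of either class reached 5 genes, whereas 4 of 13 and 2 of 9 other cells of vBrL and vBr53L did. *Kit* was at 10 CPM or more in 9 of the 14 cycling members, near its share of all members (39 of 64).

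**Figure D4:**
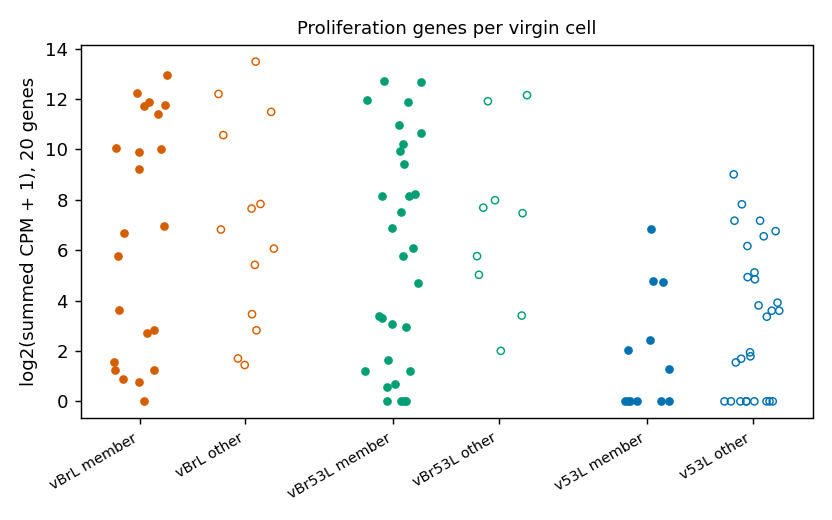
Summed level of 20 proliferation genes in each virgin cell, as log2(CPM + 1), for members (filled) and other cells (open) by mouse. The highest members of vBrL and vBr53L have 7900 and 6764 CPM, and the highest v53L member has 113 CPM.

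Several values of single lists rested on 1 or a few cells. In vBrL members *Iigp1* and *Gbp2*, both interferon-induced GTPases, had 636 and 307 CPM, of which 1 cell held 91.8% and 85.8%, and *Cxcl9* was read in 1 cell only. In v53L members 1 cell held 64.6% of the *Saa1* reads. In vBr53L members 1 cell held 99.8% of the *Cd36* reads. No single member held more than 21.2% of the *Csn2* reads of its class or 16.1% of the *Csn3* reads, while among the other cells a single cell held 43.4% to 77.6% of the *Csn2* reads.

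To compare stages, the members were set beside the 161 pregnant luminal cells under the same limits, over 7 mice with genotype as a covariate. Of 11849 genes, 0 (0%) passed under edgeR at an adjusted p under 0.05, 904 did at an unadjusted p under 0.05, and with DESeq2 800 were called. The median difference over all genes, virgin minus pregnant, was -0.37 (log2). Basal markers summed to 128, 68.1 and 0.234 CPM in virgin members against 654, 269, 184 and 110 CPM in the pregnant cells, overlapping between vBrL and p53L, and immune markers to at most 0.219 CPM against 0 to 84.9 CPM. Of 16 immediate early genes, 6 were lower in every virgin mouse than in any pregnant mouse (9.13% of all genes), *Hspa1a* and *Hspa1b*, both heat shock genes, among them. Without the cells with immune markers edgeR again called 0 genes between stages, and the part of the basal and heat shock genes in these differences was not tested.

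Genes of milk lipid synthesis had lower levels in virgin members, and whether they passed depended on the fit. Of 15 tested, 10 had a lower level in every virgin mouse than in any pregnant mouse, where 9.13% of all genes did, and 0 were higher in every virgin mouse, where 2.87% of all genes were. *Lpl*, the lipase that releases fatty acids from plasma lipoproteins, had 63.4, 55.8 and 107.3 CPM in vBrL, vBr53L and v53L against 599, 361, 375 and 733 CPM in pBrL-1, pBrL-2, pBr53L and p53L (log2 -2.68 ± 0.34, edgeR adjusted p = 0.462). *Acsl1*, which activates long-chain fatty acids, had 198, 78.8 and 149 CPM against 837, 671, 549 and 861 (log2 -2.22 ± 0.32, edgeR adjusted p = 0.462). *Plin2*, a coat protein of lipid droplets, had 1435, 1050 and 602 CPM against 4248, 3763, 4531 and 3435 (log2 -1.83 ± 0.28, edgeR adjusted p = 0.462). The stages did not overlap for these 3 genes. For *Lpl*, *Acsl1* and *Plin2* the adjusted p-values were 8.80e-07, 7.42e-05 and 7.17e-04 with DESeq2, and 7.60e-07, 8.16e-06 and 1.59e-07 with edgeR without the low-count filter. With limma they were 0.0225, 0.0302 and 0.0302. In the other 15 of 18 alternatives none of these genes passed.

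*Cd36*, the fatty acid transporter, had 110, 9.90 and 0 CPM in virgin members against 1032 to 1894 CPM, and *Fabp3*, a fatty acid binding protein, 0, 49.8 and 18.1 CPM against 448 to 1024 CPM. *Glycam1*, a milk mucin, was read in 4 of 64 virgin members, with 23.3, 0.0598 and 0 CPM, and had 2569 to 6529 CPM in the pregnant mice. Within chip SC7, the difference of *Lpl* between vBr53L and pBr53L was -2.73 (log2 of CPM + 1), and within SC9 that between v53L and p53L was -2.76. For *Acsl1* the within-chip values were -2.79 and -2.53, and for *Plin2* -2.11 and -2.51, so that both chips holding both stages had the direction.

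Among milk proteins, 5 of 16 were lower in every virgin mouse (9.13% of all genes), *Csn1s1*, *Csn1s2a*, *Csn2*, *Wap* and *Glycam1*. *Csn2* had 13524, 9858 and 23151 CPM in virgin members against 53741, 38138, 47687 and 51727 CPM. *Csn3* overlapped between the stages, with 8482, 11915 and 43351 CPM against 12563 to 22222 CPM, and the caseins together took 9.31% to 16.9% of pregnant reads. *Wap*, the whey acidic protein gene, had 0.305, 25.1 and 48.9 CPM against 124 to 433 CPM. *Lalba* had its highest level of all 7 mice in v53L and its lowest 2 in vBr53L and vBrL.

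Among the markers, *Elf5* was lower in every virgin mouse, with 36.7, 141 and 10.1 CPM against 1084, 906, 443 and 143 CPM (log2 -3.37, edgeR adjusted p = 0.648), although vBr53L and p53L were close. *Kit* had 215, 135 and 229 CPM against 143, 270, 173 and 139 CPM, with overlap. In the other direction, *Fgfr2* had 29, 17.8 and 93.9 CPM in virgin members against 0.812 to 3.79 CPM (log2 4.68 ± 1.13, edgeR adjusted p = 0.648), without overlap. *Osmr*, the oncostatin M receptor, had 73.1, 512 and 678 CPM against 53.7 to 92 CPM, higher in vBr53L and v53L only. *Cd14* had 428, 1067 and 2553 CPM against 235 to 643 CPM, with overlap between vBrL and p53L. Under DESeq2 *Elf5* (adjusted p = 2.87e-05), *Fgfr2* (1.72e-05), *Cd14* (0.0158) and *Osmr* (0.0281) passed between stages, and *Kit* (0.813) did not.

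**Figure D5:**
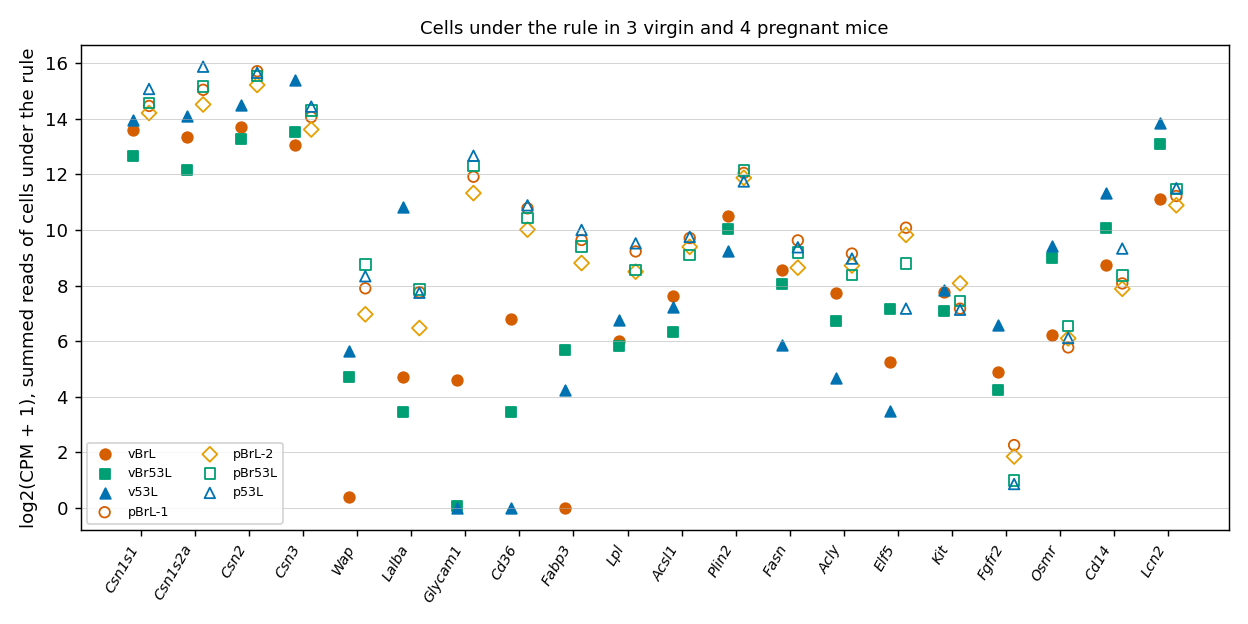
Level of 20 genes over the summed reads of cells under the rule, as log2(CPM + 1), in 3 virgin mice (filled) and 4 pregnant mice (open); the genes were chosen after their values had been seen. *Lpl*, *Acsl1*, *Plin2*, *Cd36* and *Fabp3* separate the stages, *Fgfr2* does so in the opposite direction, and *Csn3* and *Kit* overlap.

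The same limits were then applied within the 4 pregnant mice, whose cells are not members. These cells too were split on *Prlr* and *Esr1*, so the directions are not independent of the receptors. Of 10924 genes, 0 (0%) passed under edgeR at an adjusted p under 0.05, 438 did at an unadjusted p under 0.05, and with DESeq2 304 were called. Of the 17 genes lower in virgin members, 11 were tested there and 9 of these had a negative difference. Of the 9, 5 had an unadjusted p under 0.05 (edgeR), where 83 of all 10924 genes were lower at that level. *Gfpt2* (log2 7.21) and *Tspan1* (log2 0.23) had a positive difference. *Cited1* differed by -8.11, *Ptn* by -5.42, *Gpx3* by -4.99, *Tph1* by -6.79 and *Calca* by -9.83 (log2), with an edgeR adjusted p of 0.981 for each. Of the 17 genes *Ptn* was the only one lower in all 4 pregnant mice, where 3.15% of all genes tested were. The hormone-sensing list summed to 23.2 to 289 CPM in the other cells of pregnant mice, and to 42 to 195 CPM in the pregnant cells under the limits. In virgin mice it summed to 1828 to 3869 CPM in the other cells and to 61 to 204 CPM in members.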

How the data were processed

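The authors deposited whole-number read counts by gene and cell, made without molecular identifiers. By the submitters' processing notes, the authors trimmed the reads (Trim Galore 0.4.1), aligned them to mm10 (STAR 2.5.3a) and counted them per gene (Subread 1.5.3). The annotation and strand setting are not given in the sources used here. Capture sites were inspected for doublets by the authors, and none were called here. Counts were summed per mouse and class and tested with edgeR 4.0.16 (quasi-likelihood, filterByExpr, TMM) in R 4.3.3, and the code was checked on simulated data. Each virgin group is 1 mouse, and p-values measure the spread between mice. A Benjamini-Hochberg adjusted p under 0.05 was called. Genes named were the 12 with the largest difference among those called, alike in every mouse and at 10 CPM or more in the higher class, or the 5 with the largest ratio per mouse, or belonged to 23 gene lists of 253 genes, 4 of them not in the table. Members and lists were chosen with earlier results of these data known. The mouse paired the classes, since both came from the same animal. Alternatives were RLE factors, no count filter, DESeq2 1.42.0, limma 3.58.1 on log2(mean CPM + 1), thinned cells, other limits, other covariates and leaving out each mouse. Positions are from GENCODE vM21. Intervals cover counting error only. Some genes that met the naming rule are not reported here.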

Additional observations from a re-analysis of the deposited data

How the results depend on the processing

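The 17 genes called between members and other cells became 31 with RLE size factors (17 of them shared), 69 without the low-count filter (6 higher in members), 777 with DESeq2 (286 higher), 44 when only other cells past both limits entered (10 higher) and 29 with limma on mean CPM (1 higher). Leaving out 1 mouse gave 24 to 39 calls (39 without vBrL, 5 of them higher, 24 without vBr53L, 1 higher, and 39 without v53L, 0 higher). In this paired design, 18 were called with no replicate block, 13 of them shared. Without the cells with immune markers, an alternative added after seeing the data, 25 were called, and 18 with limits of 50 and 10 CPM. Direction held in every alternative for each of the 17. The adjusted p of *Wfdc12* and *Col8a1* passed the threshold in 9 of 14 alternatives, those of *Gfpt2* and *Cdo1* in 11, that of *Cd200* in 12, those of *Calca* and *Agtr1a* in 13, and those of *Cited1*, *Tph1*, *Gpx3*, *Ptn*, *Bmp3*, *Tspan1*, *Cxcl15*, *Areg* and *Slc7a2* in 14 of 14. For stage, 0 calls became 128 without the filter, 800 with DESeq2, 16 with limma, 1 with no genotype term and 10 with the chip as a block, and leaving out 1 mouse gave 0 to 1. Within pregnant mice, 0 became 304 with DESeq2 and stayed 0 with no replicate block. With limits of 50 and 10 CPM the member share was 42.9% in vBrL, 41% in vBr53L and 20.0% in v53L. Leaving out the other cell of highest casein share, added after seeing the data, turned the vBr53L difference between members and other cells from -0.780 to 1.73 percentage points for casein, from -6714 to 5555 CPM for *Csn2* and from -1366 to 3327 CPM for *Csn1s1*. Over mean CPM, 9 genes in place of 14 marked v53L. The cause of these differences was not tested.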

Other observations

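A few further groups were seen in members. The class II antigen presentation genes summed to 26.4, 51.7 and 194 CPM in vBrL, vBr53L and v53L members, against 3144, 11.3 and 60.4 CPM in the other cells, where the vBrL value stood beside 72.5 CPM of immune markers. *Slc2a1*, a glucose transporter, had 131, 254 and 208 CPM in members against 10.1, 196 and 137 CPM, and *Pfkp*, a glycolytic kinase, 76.6, 162 and 170 CPM against 17.3, 41.7 and 11.2. *Hey1*, a Notch target, had 15.3, 2.89 and 87.8 CPM in members against 0.942, 0.674 and 7.85, and was found in 11 of 64. *Cldn4*, a tight junction gene, was lower in members of all 3 mice, with 149, 343 and 212 CPM against 170, 524 and 828. *Id2*, an inhibitor of differentiation factors, had 816 CPM in v53L members against 154 and 84.7 in the other 2 mice. None of the genes named here passed under edgeR, while *Pfkp* (adjusted p = 0.0116) and *Hey1* (0.0371) passed under DESeq2.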
